A study of Mus musculus with 24 samples.

Results

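The miR-132/miR-212 cluster is a pair of neighbouring miRNA hairpins on mouse chromosome 11 that yields 4 mature miRNAs, mmu-miR-132-3p, mmu-miR-132-5p, mmu-miR-212-3p and mmu-miR-212-5p, written below without the mouse prefix. These 4 names were taken from the small RNA tables of mouse lung, which hold 1950 mature miRNAs in all over the 3 time points (1657, 1707 and 1767 at day 14, day 90 and day 180), and all 4 are listed at every time point. Lungs came from C57BL/6 mice, an inbred laboratory strain, that were 6 to 8 weeks old when they were divided into groups. Irradiated mice received 15 Gy of X-rays to the whole thorax with the rest of the body spared, and the other mice are labelled only as controls. There were 4 irradiated and 4 control libraries at each of day 14, day 90 and day 180, 24 libraries in all, and the labels do not say whether each library stands for its own animal. The p-values therefore measure the spread between libraries, which may be partly technical.

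Both hairpins are cut from 1 primary transcript, whose transcription is driven by CREB, the transcription factor that responds to cyclic AMP and calcium signals. miR-132 is best known from neurons, where activity induces it and where it acts on regulators of dendrite growth. Outside the nervous system it has been described in endothelium, where it lowers the Ras inhibitor Rasa1 during vessel growth, in monocytes and macrophages after endotoxin, and in heart muscle, where miR-132 and miR-212 act on the transcription factor FoxO3. The 3p arms are the better studied strands of both hairpins.

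The hairpins lie on the plus strand of chromosome 11 in GRCm38, Mir212 at 75173388 to 75173478 and Mir132 at 75173682 to 75173747, with 203 bases between them. GENCODE places both in an intron of the non-coding gene 1700016P03Rik (75172560 to 75177633, plus strand), with the transcriptional repressor gene Hic1 on the minus strand on one side and Ovca2, also on the minus strand, overlapping the host gene's other end. The hairpin sequences of RefSeq (GRCm38.p6) are shown 5′ to 3′ because they place the arms that the counts belong to, with the 2 mature arms of each in capitals, the 5p arm first.
Mir212: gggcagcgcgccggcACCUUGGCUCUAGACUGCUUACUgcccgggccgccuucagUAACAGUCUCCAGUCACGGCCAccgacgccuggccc
Mir132: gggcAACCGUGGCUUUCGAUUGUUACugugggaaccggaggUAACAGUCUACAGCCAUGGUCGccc

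The mature sequences follow with the seed, bases 2 to 8, in capitals, since the seed sets which messages a miRNA can pair with.
miR-132-3p: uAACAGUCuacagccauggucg
miR-212-3p: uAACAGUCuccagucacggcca
miR-132-5p: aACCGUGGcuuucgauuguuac
miR-212-5p: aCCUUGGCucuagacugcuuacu
The 3p arms share their seed and their first 9 bases, and are identical at 17 of 22 positions. Counted from the 5′ end, with the base of miR-132-3p first, they differ by A10C, C14U, U17C, U20C and G22A. Among the 1679 mature entries of the RefSeq table no other mouse miRNA has this seed, and neither 5p seed is found in any other entry. No source used here states how reads with errors were divided between the 3p arms.

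The total count was 2832205 to 3695133 per library. All 4 members passed the filter on low counts at each day. They are scarce in lung, with counts of 7 to 486 per library, and ranked 309 to 383 of 499 tested miRNAs by mean level at day 14, 305 to 368 of 558 at day 90 and 292 to 354 of 552 at day 180. Levels are given as CPM, the count scaled to library size with TMM factors within a day, and levels of different miRNAs also carry differences in ligation and amplification. The endothelial miR-126a arms summed to 35772 to 57746 CPM and the epithelial miR-200 family to 30426 to 68661 CPM in irradiated lungs. In controls the sums were 37573 to 54142 CPM for miR-126a and 34551 to 44388 CPM for the miR-200 family, so these markers of lung tissue were abundant in every library. At day 180, irradiated library 1 had the lowest total of the series, 1023 detected miRNAs against 1144 to 1298 in the other 7 libraries of that day, and a median Spearman correlation of 0.914 to them, against 0.940 to 0.962. Levels and tests of the members within that day are given with and without it. Medians and sums of lists of other miRNAs are given with it only.

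At day 180 the fitted level of all 4 members was at least 2-fold higher in irradiated than in control lungs, and none passed the test over all miRNAs. The largest difference was that of miR-212-3p, at 63.0 ± 56.1 CPM with irradiation, against 21.6 ± 1.88 CPM in controls (SD, n = 4 each). Its partner strand miR-212-5p stood at 54.7 ± 31.0 CPM with irradiation, against 24.6 ± 11.3 CPM in controls, miR-132-3p at 25.4 ± 19.7 CPM with irradiation, against 12.4 ± 0.331 CPM in controls, and miR-132-5p at 26.6 ± 12.3 CPM with irradiation, against 12.8 ± 1.57 CPM in controls. In bulk lung tissue, a change in the number of cells of a type and a change in RNA per cell cannot be told apart.

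miR-212-3p had 3.71, 37.3, 76.6 and 134 CPM in irradiated libraries 1 to 4, against 22.6, 22.9, 22.1 and 18.9 CPM in control libraries 1 to 4. Irradiated libraries 2, 3 and 4 lay above all controls and library 1 below all of them. On the log2 scale the fold change came to 1.54 ± 0.75 (SE; approximate 95% interval -0.13 to 3.22), at an edgeR adjusted p of 0.312 and an exact two-sided permutation p of 0.486.

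miR-132-3p had 2.89, 15.8, 36.4 and 46.4 CPM in irradiated libraries 1 to 4, against 12.2, 12.8, 12.5 and 12.1 CPM in controls. The pattern was that of the other 3p arm, with 3 irradiated libraries above the controls and library 1 below, and the controls lay closer together than for any other member. The log2 fold change was 1.04 ± 0.63 (95% interval -0.37 to 2.45, edgeR adjusted p = 0.414, exact permutation p = 0.543).

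miR-132-5p, the partner strand of miR-132-3p, had 17.3, 17.8, 27.8 and 43.6 CPM in irradiated libraries, against 12.0, 12.0, 15.1 and 12.1 CPM in controls. In CPM it was the only 1 of the 4 whose groups did not overlap at day 180, and irradiated library 1 was here above every control. That library had a TMM factor of 0.856. In the RPM values that the authors deposited, without TMM factors, irradiated library 1 was at 3.191 and control library 3 at 3.447. On that scale the groups of miR-132-5p overlapped. The log2 fold change was 1.06 ± 0.35 (95% interval 0.27 to 1.84), with an unadjusted p of 0.0133 and an adjusted p of 0.251 in edgeR. Its exact permutation p, which rests on the CPM, was 0.0286, and 4 against 4 libraries cannot give a lower one. Groups did not overlap, with irradiated lungs higher, in 5.43% of the 552 miRNAs tested. In library 1, however, the 81 miRNAs that, like this arm, hold no cytosine followed by adenosine stood at a median of 1.30 above the control mean on the log2 scale, and miR-132-5p at 0.43 was the 7th lowest of them. The part of that shift in the separation was not tested. Without library 1 the groups of miR-132-5p were still apart.

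miR-212-5p had 44.1, 24.6, 52.3 and 97.8 CPM in irradiated libraries, against 39.9, 22.1, 23.9 and 12.7 CPM in controls. In CPM, irradiated library 2 lay among the controls and the other 3 irradiated libraries above them. In the authors' RPM, irradiated library 1 was at 8.13, below control library 1 at 9.328. The log2 fold change was 1.15 ± 0.47 (95% interval 0.10 to 2.20, unadjusted p = 0.0354 and adjusted p = 0.259 in edgeR, exact permutation p = 0.0571).

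edgeR called 0 of the 4 members at day 180 (0% of 552 miRNAs were called), DESeq2 called 0 (5.19% of 539 called) and limma-voom 0 (0% of 552). At an unadjusted edgeR p under 0.05 with irradiated lungs higher there were 2 of the 4, against 10.9% of all tested, and a fitted fold of 2 or more was found for 4 of 4 against 11.2%. The members come from 1 transcript and are not independent of each other. miR-132-5p passed in limma-voom with library weights (adjusted p = 0.0352) and with all 24 libraries in 1 fit (0.0361), while its alternatives spanned 0.0352 to 0.481. miR-212-3p passed with library weights (adjusted p = 0.0498), while its alternatives spanned 0.0498 to 0.738. With library weights 7.97% of miRNAs were called, and 5.13% with all 24 libraries.

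**Figure D1:**
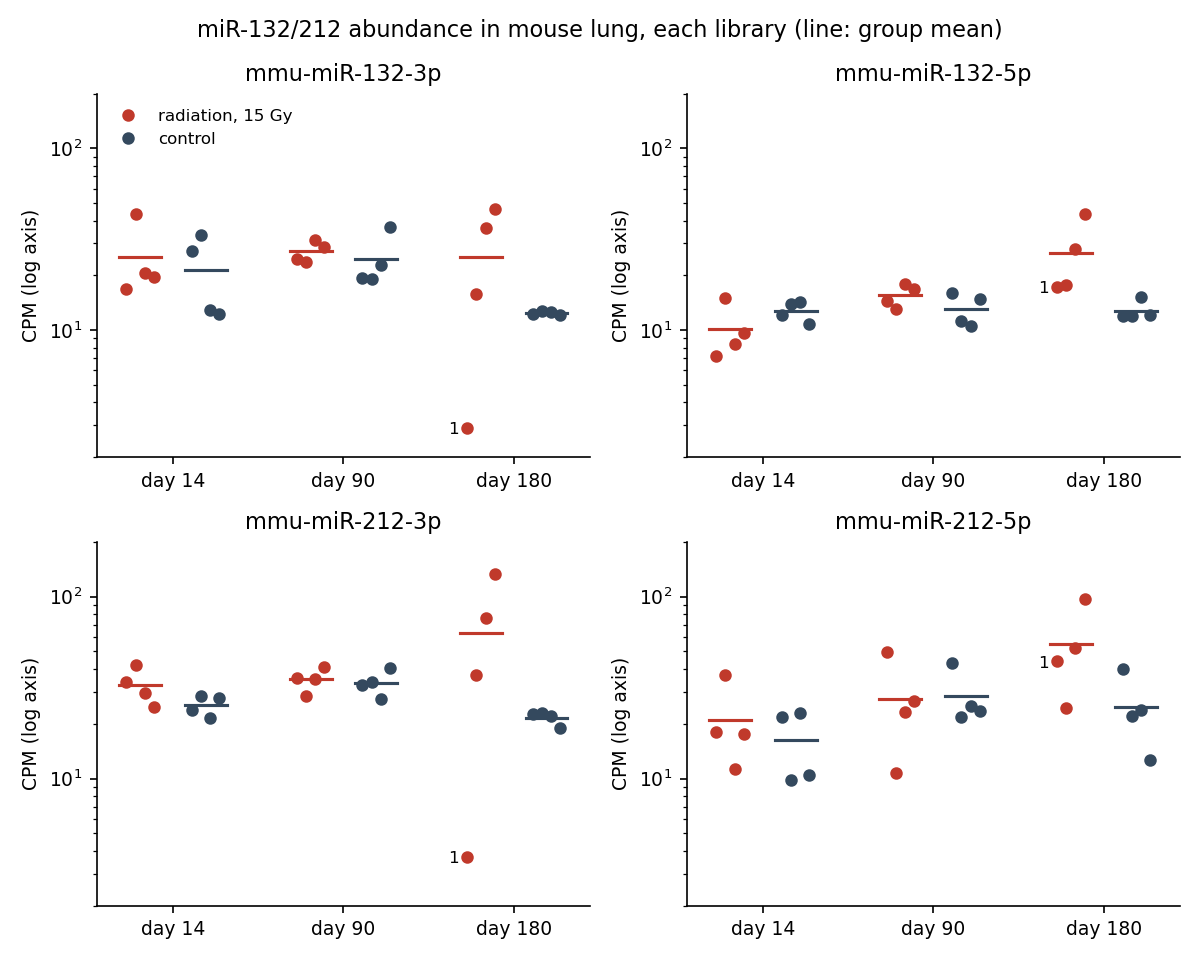
CPM on a log axis in each library for the 4 members, by day, with irradiated libraries (red) left of controls (grey) in the order of their replicate numbers and the group mean as a line. At day 180 irradiated library 1, marked 1, lies at 2.89 and 3.71 CPM for the 3p arms, below all controls. For the 5p arms it lies at 17.3 and 44.1 CPM, above all controls on this scale. In the authors' RPM it lies below control library 3 for miR-132-5p and below control library 1 for miR-212-5p.

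Irradiated library 1 of day 180 held 7 counts of miR-132-3p beside 42 of miR-132-5p, and 9 counts of miR-212-3p beside 107 of miR-212-5p. The ratio of the arms is taken within a library and does not depend on how libraries are scaled. On the log2 scale (0.5 counts added) the 3p arm over the 5p arm of miR-212 was -3.50, 0.60, 0.55 and 0.46 in irradiated libraries 1 to 4, against -0.82, 0.05, -0.11 and 0.57 in controls. For miR-132 it was -2.50, -0.17, 0.39 and 0.09 in irradiated libraries, against 0.03, 0.09, -0.27 and 0.00 in controls. Library 1 thus lay below the other 23 libraries of the series in both ratios, and the ratios of irradiated libraries 2 to 4 overlapped those of their controls.

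**Figure D2:**
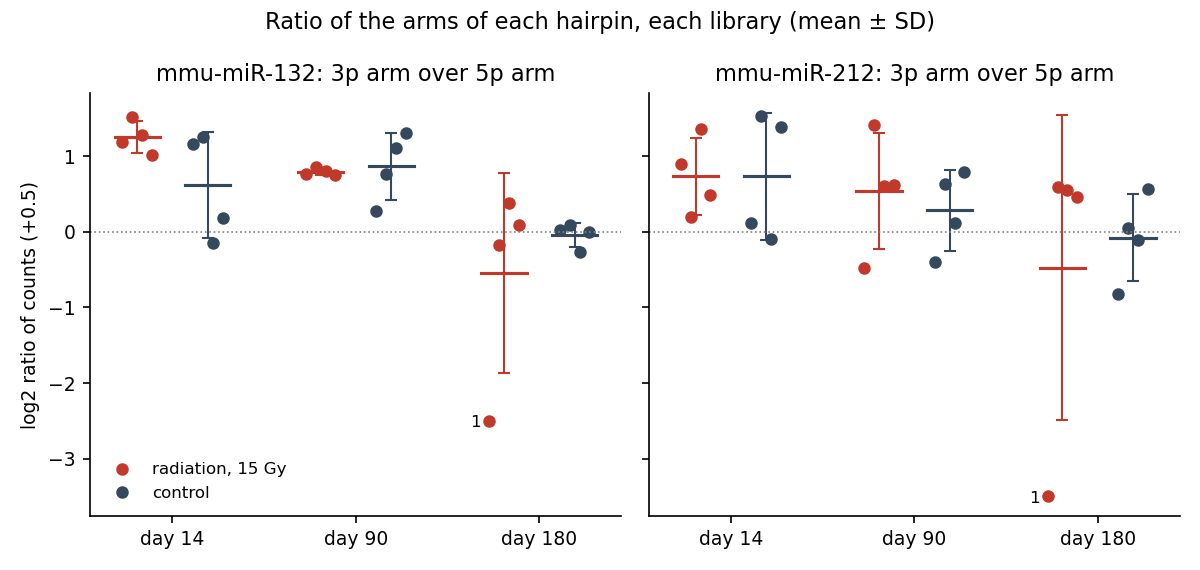
Log2 ratio of 3p to 5p counts (0.5 added) of miR-132 and miR-212 in each library, by day, irradiated (red) left of control (grey), with mean ± SD (n = 4). Irradiated library 1 of day 180, marked 1, is at -2.50 for miR-132 and -3.50 for miR-212.

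Compared with the mean of the other 3 irradiated libraries of that day, library 1 was lower by 4.10 on the log2 scale for miR-212-3p, the 2nd lowest of 552 tested miRNAs, and by 3.14 for miR-132-3p, the 7th lowest. The same difference was -0.67 for miR-132-5p and -0.18 for miR-212-5p, against a median of -0.19 over all 552. The 2 classes of arms were close to each other, with medians of -0.22 over 267 3p arms and -0.15 over 263 5p arms. Over 136 hairpins with both arms tested, the deviation of the 3p arm minus that of the 5p arm was the 3rd lowest for miR-212 (-3.91) and the 14th lowest for miR-132 (-2.47), with a median of -0.10.

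The arms differ in a sequence feature that went with their levels in library 1. The mature sequences are shown again with each cytosine followed by adenosine, a CA step, in capitals.
miR-132-3p: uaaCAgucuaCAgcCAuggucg
miR-212-3p: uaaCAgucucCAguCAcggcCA
miR-132-5p: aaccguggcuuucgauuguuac
miR-212-5p: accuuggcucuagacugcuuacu
miR-132-3p has 3 CA steps and miR-212-3p has 4, and both 5p arms have none. Over the 374 miRNAs that were tested on all 3 days (480 in all) and matched a RefSeq mature sequence, the number of CA steps and the log2 CPM of library 1 minus the mean of the 4 controls had a Pearson r of -0.71. The same r was -0.10, -0.12 and -0.05 in irradiated libraries 2, 3 and 4. The median difference in library 1 was 1.30 for the 81 miRNAs without a CA step, 0.07 for 128 with 1, -0.60 for 88 with 2, -1.23 for 54 with 3 and -1.71 for 23 with 4 or more. In library 1 miR-212-3p stood at -2.37, the 2nd lowest of its 23, and miR-132-3p at -1.91, the 11th lowest of its 54. Among the 81 without a step miR-132-5p stood at 0.43, the 7th lowest, and miR-212-5p at 0.94, the 29th lowest. In irradiated library 4, by contrast, the 4 members stood at 2.61 (miR-212-3p), 2.07 (miR-212-5p), 1.86 (miR-132-3p) and 1.73 (miR-132-5p), while the class medians lay between -0.12 and 0.16.

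This feature was chosen after the values were seen, as the strongest of 16 dinucleotides. Against the other 3 irradiated libraries of its day instead of the controls, library 1 gave r = -0.66 for CA and -0.24 for AC, the next most negative. In the 20 libraries of the other 5 groups, each set against the other 3 of its group, r for CA lay between -0.14 and 0.16. Irradiated libraries 2, 3 and 4 of day 180, set against means that include library 1, gave 0.42, 0.36 and 0.29. The points are miRNAs of the same libraries and share their depth and scaling, so these correlations are descriptions. The cause of the pattern in library 1 was not tested.

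**Figure D3:**
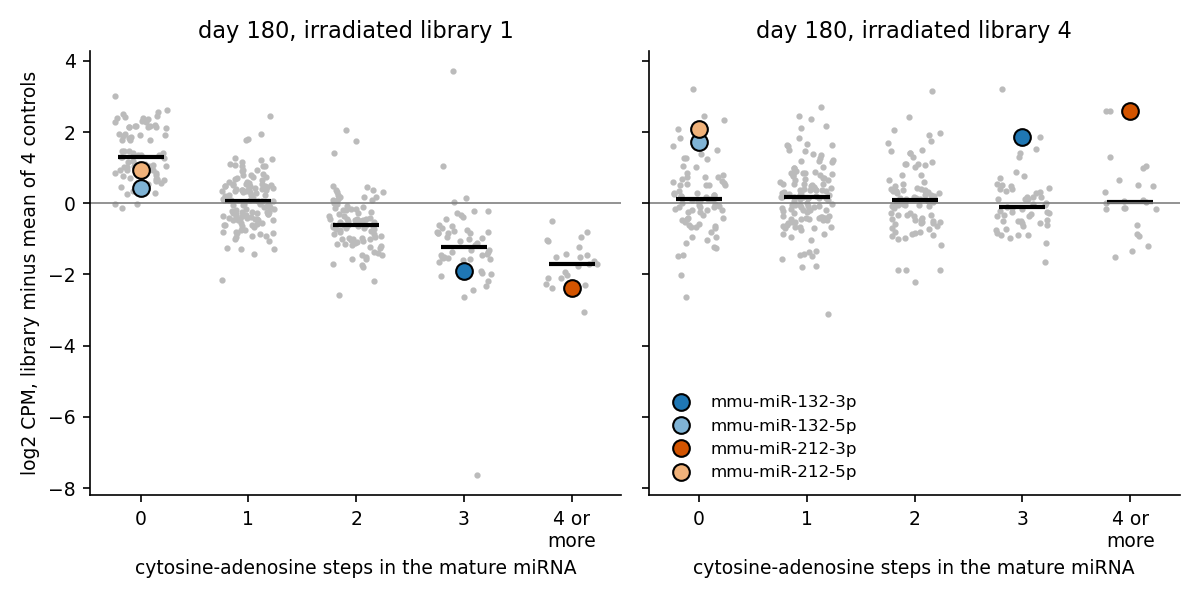
Log2 CPM of an irradiated day 180 library minus the mean of the 4 controls (vertical) against the number of CA steps in the mature miRNA (horizontal) for 374 miRNAs, with class medians as black bars, for library 1 (left) and library 4 (right). The 4 members are coloured. In library 1 the medians run between 1.30 without a step and -1.71 with 4 or more, and in library 4 they stay between -0.12 and 0.16.

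Without irradiated library 1 (3 irradiated against 4 control libraries), the fitted fold of each member was larger. miR-212-3p stood at 84.0 ± 49.0 CPM with irradiation, against 22.2 ± 1.93 CPM in controls (SD, n = 3 and 4), 3.78-fold, with a log2 fold change of 1.92 ± 0.38 (SE) and an edgeR adjusted p of 0.0554. miR-132-3p stood at 33.4 ± 15.7 CPM with irradiation, against 12.7 ± 0.345 CPM in controls, 2.62-fold (adjusted p = 0.0573 in edgeR). miR-132-5p stood at 30.2 ± 13.0 CPM with irradiation, against 13.1 ± 1.58 CPM in controls, 2.30-fold (adjusted p = 0.0682 in edgeR), and miR-212-5p at 59.1 ± 37.2 CPM with irradiation, against 25.3 ± 11.6 CPM in controls, 2.33-fold (adjusted p = 0.177 in edgeR). In 3 of the 4 members, all but miR-212-5p, the irradiated libraries then lay above all controls, as in 12% of the 575 miRNAs tested. The exact permutation p was 0.0286 for each of these 3, the lowest that 3 against 4 libraries can give, and 0.143 for miR-212-5p. None passed the adjusted threshold, and none of 575 miRNAs did so in edgeR (0%). At an unadjusted p under 0.05 with irradiated lungs higher there were all 4 members, against 83 of 575 miRNAs (14.4%). With any other single library of the day left out, that count of members was 1 or 2. It was 1 without irradiated library 3 or 4 or control library 2, 3 or 4. The count over all miRNAs, in either direction, moved as well, and was 146 of 575 without irradiated library 1. With another library left out it was between 60 of 579 (control library 2) and 121 of 573 (irradiated library 2). Without irradiated library 4, which held the highest level of each member, the log2 fold changes were 0.87 for miR-212-3p, 0.58 for miR-132-3p, 0.73 for miR-132-5p and 0.73 for miR-212-5p.

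At day 14 no member passed the test, and no member's groups were separate (0 of 4 with irradiated lungs higher throughout, against 0.802% of all tested). miR-212-3p had 33.9, 42.2, 29.5 and 24.8 CPM in irradiated libraries 1 to 4, against 23.8, 28.4, 21.5 and 27.7 CPM in controls, with 3 irradiated libraries above all controls. Its log2 fold change was 0.36 ± 0.21 (95% interval -0.11 to 0.83, edgeR adjusted p = 0.907, exact permutation p = 0.114). miR-132-3p had 16.8, 43.5, 20.7 and 19.6 CPM in irradiated libraries, against 27.2, 33.5, 13.0 and 12.3 CPM in controls, and the groups overlapped widely (log2 fold change 0.22 ± 0.43, adjusted p = 0.978 in edgeR). miR-132-5p was the only member with a negative value at this day, at 10.1 ± 3.45 CPM with irradiation, against 12.8 ± 1.67 CPM in controls (-0.34 ± 0.25, adjusted p = 0.919 in edgeR). miR-212-5p stood at 21.01 ± 11.1 CPM with irradiation, against 16.2 ± 7.10 CPM in controls (0.37 ± 0.43, adjusted p = 0.919 in edgeR). By edgeR 0 of the 4 members were called (0% of 499 miRNAs), and 0 of 4 had an unadjusted p under 0.05 (5.41% of 499). DESeq2 called 0 of the 4 (0.202% of 494) and limma-voom 0 (0% of 499).

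At day 90 the fitted differences lay between -0.04 and 0.24, and again 0 of 4 members had groups apart with irradiated lungs higher (4.84% of all tested). miR-132-3p had 24.7, 23.6, 31.2 and 28.7 CPM in irradiated libraries 1 to 4, against 19.4, 19.2, 22.8 and 36.9 CPM in controls, where library 4 held the highest value of the day. miR-212-3p had 35.8, 28.5, 35.4 and 40.9 CPM in irradiated libraries, against 32.7, 34.0, 27.3 and 40.8 CPM in controls, nearly the same range in both groups. The log2 fold changes were 0.14 ± 0.25 for miR-132-3p and 0.06 ± 0.20 for miR-212-3p (SE), with 95% intervals of -0.42 to 0.69 and -0.38 to 0.50. miR-132-5p stood at 15.5 ± 2.22 CPM with irradiation, against 13.1 ± 2.67 CPM in controls (0.24 ± 0.23) and miR-212-5p at 27.6 ± 16.3 CPM with irradiation, against 28.4 ± 9.87 CPM in controls (-0.04 ± 0.41). The edgeR adjusted p was 0.727 to 0.976 over the 4, so edgeR called 0 of 4 (0.358% of 558 miRNAs called), and 0 of 4 had an unadjusted p under 0.05 (12.7%). DESeq2 called 0 of the 4 (3.41% of 557) and limma-voom 0 (0.538% of 558).

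miR-212-5p varied more than its 3p partner within groups at these days. At day 90 it had 49.7, 10.7, 23.2 and 26.6 CPM in irradiated libraries, against 43.1, 21.8, 25.2 and 23.6 CPM in controls, so that library 1 was the highest of each group. The log2 ratio of the arms of miR-212 lay at 0.19 to 1.37 in irradiated and -0.09 to 1.53 in control libraries at day 14, and at -0.47 to 1.41 in irradiated and -0.40 to 0.79 in control libraries at day 90. The ratio of the arms of miR-132 lay at 1.01 to 1.52 in irradiated and -0.14 to 1.26 in control libraries at day 14, and at 0.76 to 0.86 in irradiated and 0.28 to 1.30 in control libraries at day 90. Set side by side by number after the data were seen, the day 14 libraries had a higher miR-132 ratio with irradiation at 4 of 4 numbers. The differences were 0.03, 0.26, 1.43 and 0.82 for numbers 1 to 4. The labels do not say that equal numbers are pairs, and no other hairpin was set out in this way, so no conclusion is drawn. The arm ratios, miR-132-3p to miR-212-3p and miR-132-5p to miR-212-5p had overlapping groups at every day. Of the other 2 ratios, computed after the data were seen, miR-132-5p to miR-212-3p did not overlap at day 14, at -2.20 to -1.354 in irradiated libraries, against -1.350 to -0.58 in controls, a narrow gap, and overlapped at day 90 and day 180.

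**Figure D4:**
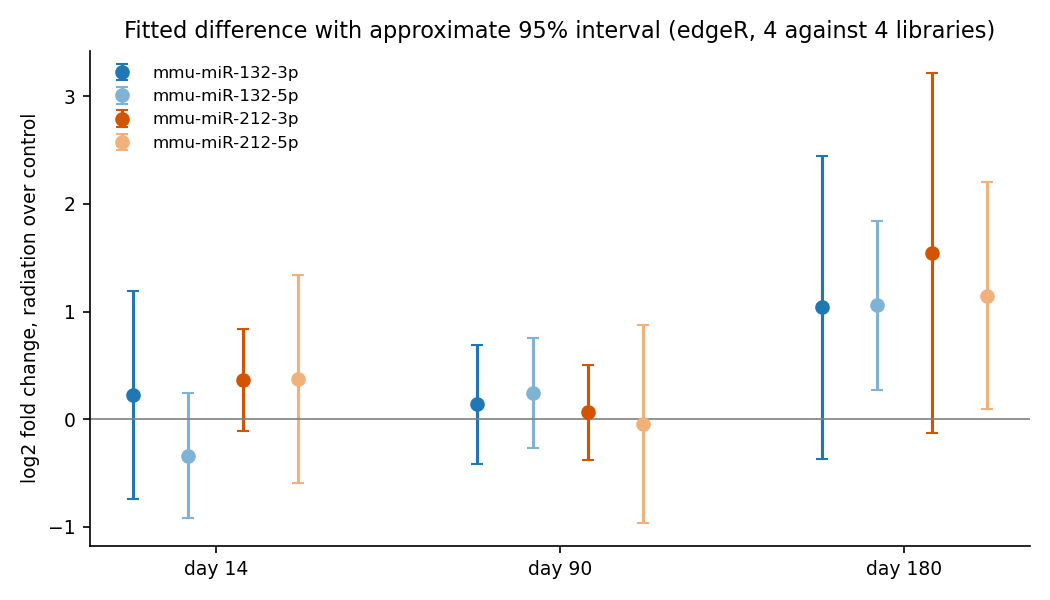
Log2 fold change of irradiated over control lungs for the 4 members at each day, from edgeR with 4 against 4 libraries, with approximate 95% intervals. The fitted values lie between -0.34 and 0.37 at day 14 and day 90 and between 1.04 and 1.54 at day 180, where the intervals of the 5p arms lie above 0 and those of the 3p arms include 0.

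Among the controls of a day, the order of the members was not constant. At day 180 the miR-212 arms stood at 21.6 ± 1.88 (3p) and 24.6 ± 11.3 CPM (5p) and the miR-132 arms at 12.4 ± 0.331 (3p) and 12.8 ± 1.57 CPM (5p). The arms of a hairpin overlapped there, and every control library had more miR-212-3p than either miR-132 arm. Within the 24 libraries, the log2 ratio of miR-132-3p to miR-212-3p was lowest in irradiated libraries 4 and 2 of day 180 (-1.53 and -1.23), followed by control library 4 of day 14 (-1.16). Irradiated library 3 of day 180 was at -1.07, against -0.88 to -0.64 in the 4 controls of day 180. Irradiated library 1 was at -0.34 from 7 and 9 counts. Control levels of miR-132-3p were 21.5 ± 10.5 CPM at day 14, 24.6 ± 8.41 CPM at day 90 and 12.4 ± 0.331 CPM at day 180. The 3 tables were scaled separately, so these control levels are set side by side and were not tested.

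The difference of the radiation effect between days was tested in 1 fit of the 24 libraries. For day 180 minus day 14 the log2 difference was 1.36 ± 0.40 for miR-132-5p (SE, unadjusted p = 0.00256, adjusted p = 0.207 in edgeR), from effects of 1.03 at day 180 and -0.33 at day 14, and it ranked 5th of 624 miRNAs by p. The other 3 members had differences of 0.73 to 1.14 with an edgeR adjusted p of 0.535 to 0.738. For day 180 minus day 90 the differences were 1.44 ± 0.71 for miR-212-3p, 1.16 ± 0.67 for miR-212-5p, 0.87 ± 0.70 for miR-132-3p and 0.79 ± 0.40 for miR-132-5p (edgeR adjusted p 0.331 to 0.584). For day 90 minus day 14 they lay between -0.43 and 0.57 (edgeR adjusted p = 0.996 for each). No member passed in these 3 comparisons, in which edgeR found no miRNA among 624 (0%). At an unadjusted p under 0.05 there was 1 of 4 members for day 180 minus day 14 (11.4% of 624), 0 for day 180 minus day 90 (14.6%) and 0 for day 90 minus day 14 (4.49%). DESeq2 called 0 members and 3, 2 and 1 of 616 miRNAs in that order, and limma-voom called none of 624.

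Leaving out 1 library changed a call in 2 cases. Without irradiated library 1 of day 180, the difference of day 180 minus day 90 for miR-212-3p was 1.83 and passed (edgeR adjusted p = 0.018, 1.56% of 639 miRNAs called), where its alternatives spanned 0.018 to 0.823. Without irradiated library 2 of day 180, the difference of day 180 minus day 14 for miR-132-5p was 1.60 and passed (edgeR adjusted p = 0.0358, 2.79% of 645 called), where its alternatives spanned 0.0358 to 0.494.

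miRNAs that share a setting with miR-132 were described from 3 lists. edgeR called 0% of all miRNAs tested at day 14, 0.358% at day 90 and 0% at day 180. That none of a list passed is therefore not particular to the list. Of the endotoxin-responsive miRNAs, 3 of 5 were tested at each day and 0 passed in either direction, with median log2 fold changes of -0.20, -0.14 and 0.94 at day 14, 90 and 180, against 0.01, -0.02 and 0.13 over all miRNAs tested. At day 180, miR-155-5p, which is induced in activated macrophages and lymphocytes, had 640, 535, 964 and 2014 CPM in irradiated libraries 1 to 4, against 493, 493, 518 and 315 CPM in controls (adjusted p = 0.259 in edgeR), with every irradiated library above every control. Groups were apart in this direction in 5.43% of the 552 miRNAs tested. miR-155-5p holds no CA step. In library 1 it stood at 0.52 above the control mean on the log2 scale, the 11th lowest of the 81 without a step, whose median was 1.30. The part of that shift in the separation was not tested. miR-146b-5p, a miRNA of the NF-kB response, averaged 4187 ± 2192 CPM with irradiation, against 2179 ± 415 CPM in controls (log2 fold change 0.94, adjusted p = 0.259 in edgeR), with irradiated libraries 3 and 4 at 5377 and 6679 CPM. miR-146a-5p stood at 10698 ± 1671 CPM with irradiation, against 11684 ± 1300 CPM in controls. As for the 4 members, irradiated library 4 held the highest value of miR-155-5p and miR-146b-5p. In library 1, neither miR-155-5p nor miR-146b-5p was below the control mean.

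Of the neuronal activity and synapse miRNAs, 9, 10 and 10 of 11 were tested at day 14, 90 and 180 and 0 passed, with medians of -0.01, -0.05 and 0.81. At day 180, 7 of the 10 had a fitted value above 0 and 3 below, and the summed level of the list was 5219 to 7380 CPM with irradiation, against 5896 to 8423 CPM in controls. The 3 were miR-29a-3p (-0.40), miR-128-3p (-0.21) and miR-219a-5p (-0.85), named after their values were seen. At day 180, miR-124-3p, the main neuronal miRNA, had 36.3, 49.2, 42.7 and 14.9 CPM in irradiated libraries 1 to 4, against 9.83, 7.74, 4.95 and 12.1 CPM in controls (adjusted p = 0.0997 in edgeR). Its highest library was irradiated library 2, where 3 of the 4 members, all but miR-132-5p, were closest to the control mean. miR-134-5p, a synapse miRNA, stood at 24.4 ± 7.80 CPM with irradiation, against 15.0 ± 2.79 CPM in controls. Of the vessel growth miRNAs, all 10 were tested at each day and 0 passed, with medians of -0.02, -0.10 and 0.02. miR-126a-3p, the endothelial miRNA, stood at 34459 ± 8300 CPM with irradiation, against 31943 ± 2410 CPM in controls at day 180.

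Markers of other cell types were set beside the day 180 values. The 8 neuron markers, of which 7 were tested and none was at 0 in all 8 libraries, summed to 974 to 2075 CPM with irradiation, against 593 to 826 CPM in controls, without overlap. Within that list miR-7b-5p had 454, 1141, 1416 and 216 CPM in irradiated libraries 1 to 4, against 68.5, 120, 73.4 and 54.1 CPM in controls (adjusted p = 0.0809 in edgeR), and miR-124-5p was under 1 CPM in every library. Without miR-7b-5p the other 7 markers summed to 540 to 758 CPM with irradiation, against 519 to 706 CPM in controls, with overlap. Of the 7 tested neuron markers 5 had a fitted value above 0. The 4 myeloid markers summed to 3824 to 6463 CPM with irradiation, against 4270 to 5116 CPM in controls, the 2 lymphocyte markers to 14151 to 18825 CPM with irradiation, against 15664 to 22144 CPM in controls and the 2 endothelial markers to 37509 to 57746 CPM with irradiation, against 41590 to 46383 CPM in controls, each with overlap. The 3 fibroblast markers summed to 3168 to 12306 CPM with irradiation, against 6068 to 7989 CPM in controls, with overlap. miR-199a-3p, of that list, stood at 3.72, 4.88, 5.20 and 0.41 on the log2 scale from the control mean in irradiated libraries 1 to 4. miR-199b-3p, outside the list, stood at -7.64, -7.37, -6.26 and 1.52. The division of reads between these names was not tested, and the sum may carry it. The 2 stratified epithelium markers summed to 581 to 790 CPM with irradiation, against 817 to 890 CPM in controls, lower and without overlap. The 4 erythroid markers (median log2 fold change -0.46), the 5 of heart and skeletal muscle (-0.29), the 3 of smooth muscle (0.06), the 5 epithelial (-0.08) and the 2 liver markers (0.03) had overlapping sums. No marker of any list passed in edgeR at day 180, where 0% of 552 miRNAs did. The part of these cell types in the day 180 values of the members was not tested.

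Within groups, the 2 arms of a hairpin and the 2 hairpins varied together to different degrees. Taking the mean of each group away from log2 CPM, over the 24 libraries the Pearson r with miR-132-3p was 0.89 for miR-212-3p, 0.70 for miR-132-5p and 0.26 for miR-212-5p. Without irradiated library 1 of day 180 these were 0.68, 0.70 and 0.35. Of 476 other miRNAs tested on all days, the 5 most like miR-132-3p were miR-342-3p (0.87), miR-182-5p (0.86), miR-674-3p (0.85), miR-199a-5p (0.83) and miR-15b-3p (0.82), and the 2 least like it were miR-145a-3p (-0.86) and miR-30c-2-3p (-0.85). Without that library the 5 stood at 0.51 to 0.61 and the 2 at -0.56 and -0.55. The points share libraries, depth and scaling, and the values of these 7 miRNAs were nearer 0 without that library. The ranking also changed: the 5 highest were then miR-7689-3p (0.63), miR-674-3p (0.61), miR-342-3p (0.60), miR-182-5p (0.60) and miR-511-3p (0.58), and the 2 lowest miR-467e-5p (-0.68) and miR-467c-5p (-0.60).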

How the data were processed

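Lung RNA was isolated with Trizol, per the labels' protocols, and the size class of mature miRNAs was excised from a denaturing gel before adaptor ligation, reverse transcription and PCR. In the table of each day the authors deposited raw counts per mature miRNA beside RPM values. The values show that each RPM is the count over a library total larger than the sum of the table. Bowtie2 and GRCm38.p6 are named, without a role, in the submitters' processing notes. No source used here mentions molecular identifiers, so reads may be copies of the same molecule, and errors come from the spread between libraries.

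Each day was tested alone with edgeR 4.0.16 in R 4.3.3 (filterByExpr, TMM, quasi-likelihood F-test with the legacy fit, Benjamini-Hochberg adjustment over all miRNAs of the day, threshold 0.05). SEs and 95% intervals were derived from the F statistic and are approximate. Differences between days were tested in 1 fit on miRNAs shared by the 3 tables. Alternatives used DESeq2 1.42.0 and limma 3.58.1, other scalings and filters, the authors' RPM totals as library sizes, a replicate block and leaving out each library. Exact permutation tests ran on log2(CPM + 1) over the libraries of a day, 12 in all, two-sided. They also ran for the 4 members at day 180 without irradiated library 1. The tests were run on simulated data first. The closest pair of libraries differed by a chi-square of 50.2 per degree of freedom, so none was counted as a copy.

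Same-numbered libraries had positive correlations of their deviations at day 14 (0.172 to 0.465). Irradiated library 2 (0.172) was closer to a control library of another number. The labels do not say that equal numbers are pairs. The main tests took the libraries as unpaired, and the replicate block was an alternative. At day 90 and day 180 same-numbered libraries did not deviate together throughout (-0.224 to 0.355 and -0.356 to -0.0934).

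The members and the lists were chosen with earlier results of these data known. Named miRNAs are the 4 members, up to 4 of each list, the 5 most and 2 least like miR-132-3p, and 5 members of the neuron and neuronal lists, picked after their values were seen. All 4 members matched RefSeq sequences.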

Additional observations from a re-analysis of the deposited data

Results flagged for a closer look

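Of 48 sets of 4 libraries (24 of member levels and 24 of ratios between members), 4 held a library far from the other 3, where chance gives about 1 in 20. The log2 ratio of miR-212-3p to miR-212-5p was -3.50 in irradiated library 1 of day 180, with the other 3 irradiated libraries of that day at 0.46 to 0.60. miR-132-3p stood at 43.5 CPM in irradiated library 2 of day 14, with the other 3 at 16.8 to 20.7 CPM. miR-212-5p stood at 43.1 CPM in control library 1 of day 90, with the other 3 at 21.8 to 25.2 CPM. miR-132-5p stood at 15.1 CPM in control library 3 of day 180, with the other 3 at 12.0 to 12.1 CPM.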

How the results depend on the processing

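No member passed at day 14 or day 90 under any of the 19 alternatives of each day. Few miRNAs of any kind did. The most called were 7 of 1657 at day 14 (no filter) and 19 of 557 at day 90 (DESeq2). At day 180 the number of members called was 2 with limma-voom library weights (log2 fold changes of 1.03 for miR-132-5p and 1.51 for miR-212-3p) and 1 with all 24 libraries in one fit (1.03 for miR-132-5p), and 0 in the other 17, among them DESeq2, where miR-132-5p had an adjusted p of 0.0505. All log2 fold changes of day 180 stayed above 0. They ranged from 0.49 (limma-voom) to 1.39 for miR-132-3p and from 0.73 (limma-voom) to 1.92 for miR-212-3p. Leaving out 1 library, the difference of day 180 minus day 14 for miR-132-5p ran from 1.08 to 1.70, that of day 180 minus day 90 for miR-212-3p from 0.88 to 1.83, and the number of members called from 0 to 1 in both. With the replicate number as a block, 0 members were called in every comparison, and 0 miRNAs over all tested. At day 180, where same-numbered libraries did not deviate together, miR-212-3p had 0.92 and miR-132-3p 0.59 with the block. The block moved the calls over all miRNAs at day 90 to 0, against 2. Without 1 library some small values changed sign: miR-132-3p (-0.16) and miR-212-5p (-0.03) at day 14, and miR-212-3p (-0.04) and miR-212-5p (0.22) at day 90. Over all miRNAs, day 180 calls were 0 in edgeR, 18 without a filter, 28 in DESeq2, 44 with library weights and 32 with all 24 libraries. The cause of these changes was not tested. Member counts of 7 to 486 per library limit the precision.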
